A study of Mus musculus with 35 samples.

Results

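The sarcomere genes of striated muscle were examined in the mRNA of mouse interscapular brown fat (iBAT) against epididymal white fat (eWAT). The members are a list of 38 genes for the filaments and discs of the contractile unit, matched to the deposited Ensembl identifiers by mouse symbol. Of these, 37 were among the 18947 genes of the authors' deposited table, and Myh6, the heart's main alpha myosin heavy chain, was not analysed here.

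The sarcomere is the repeating unit of skeletal and heart muscle, in which thick filaments of myosin pull on thin filaments of actin. Calcium binds troponin C on the thin filament, which shifts tropomyosin and lets myosin attach. Fast-twitch, slow-twitch and heart fibres use different isoforms of the same parts, so the isoform mRNAs tell the fibre kinds apart. Adipocytes do not build sarcomeres, although brown adipocytes and skeletal muscle share a precursor in the embryo, and interscapular fat lies against the muscles of the back and shoulder.

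The mRNA comparison rests on 4 iBAT and 4 eWAT libraries from C57BL/6J males aged 15 weeks, dissected and flash frozen, with no genetic change or treatment. A second readout was small RNA from 13-week-old C57BL/6J males, with 3 libraries for each of 6 labels: iBAT, eWAT, cWAT, mWAT, aWAT and iWAT. The protocol also mentions inguinal pads of cold-housed mice without tying them to a label, and cWAT is not spelled out, so housing temperature defined no group here. The other 9 of the 35 samples, from Argonaute crosslinking, were not analysed here. All libraries are bulk tissue, so fewer cells of a type and less RNA per cell cannot be told apart. No label says that the libraries of a group came from separate animals, so p-values measure the spread between these samples.

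For mRNA only the authors' comparison was at hand, with no value per library. It gives each gene a base mean (the average normalized count over the libraries), a log2 fold change with its standard error (SE), and a p-value adjusted over all genes; a positive sign was taken to mean more in iBAT, since Ucp1, the brown-fat uncoupling protein, was positive. A level in each depot was worked out from the base mean and the fold change, on the assumption that the fold is the ratio of the 2 depot means. Levels are not divided by transcript length, so they are compared between depots for a gene and not between genes. A gene is called at a deposited adjusted p under 0.05. Per the authors' deposited table, 10 of 10 brown adipocyte markers, Ucp1 among them, were called higher in iBAT, where 20.9% of all genes were. As Ucp1 set the direction, this is no separate check of the sign.

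Per the authors' deposited table, 33 of the 37 sarcomere genes analysed were higher in iBAT, where 20.9% of all genes were. Only Myl4 was lower, where 27.1% of all genes were, and Tnnt2, Tpm2 and Tpm3 were not called. The median log2 fold change of the members per the authors' deposited table was 5.81, against -0.10 over all genes. A log2 fold change over 4 was found for 25 members per the authors' deposited table, and for 239 genes, or 1.26%, of the whole. Of the 100 largest log2 fold changes toward iBAT per the authors' deposited table, 16 belonged to sarcomere genes, with Myh4 and Xirp2 in first and second place. The 11 fast-fibre isoforms were all called higher per the authors' deposited table, with log2 fold changes from 2.88 to 17.69 and a median of 7.20. The 9 slow-fibre isoforms were also all called higher per the authors' deposited table, from 2.95 to 9.62 with a median of 6.68. The ranges of the fast and slow sets overlap, and the difference between them was not tested. These fast and slow sets were drawn up after the values had been seen.

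**Figure D1:**
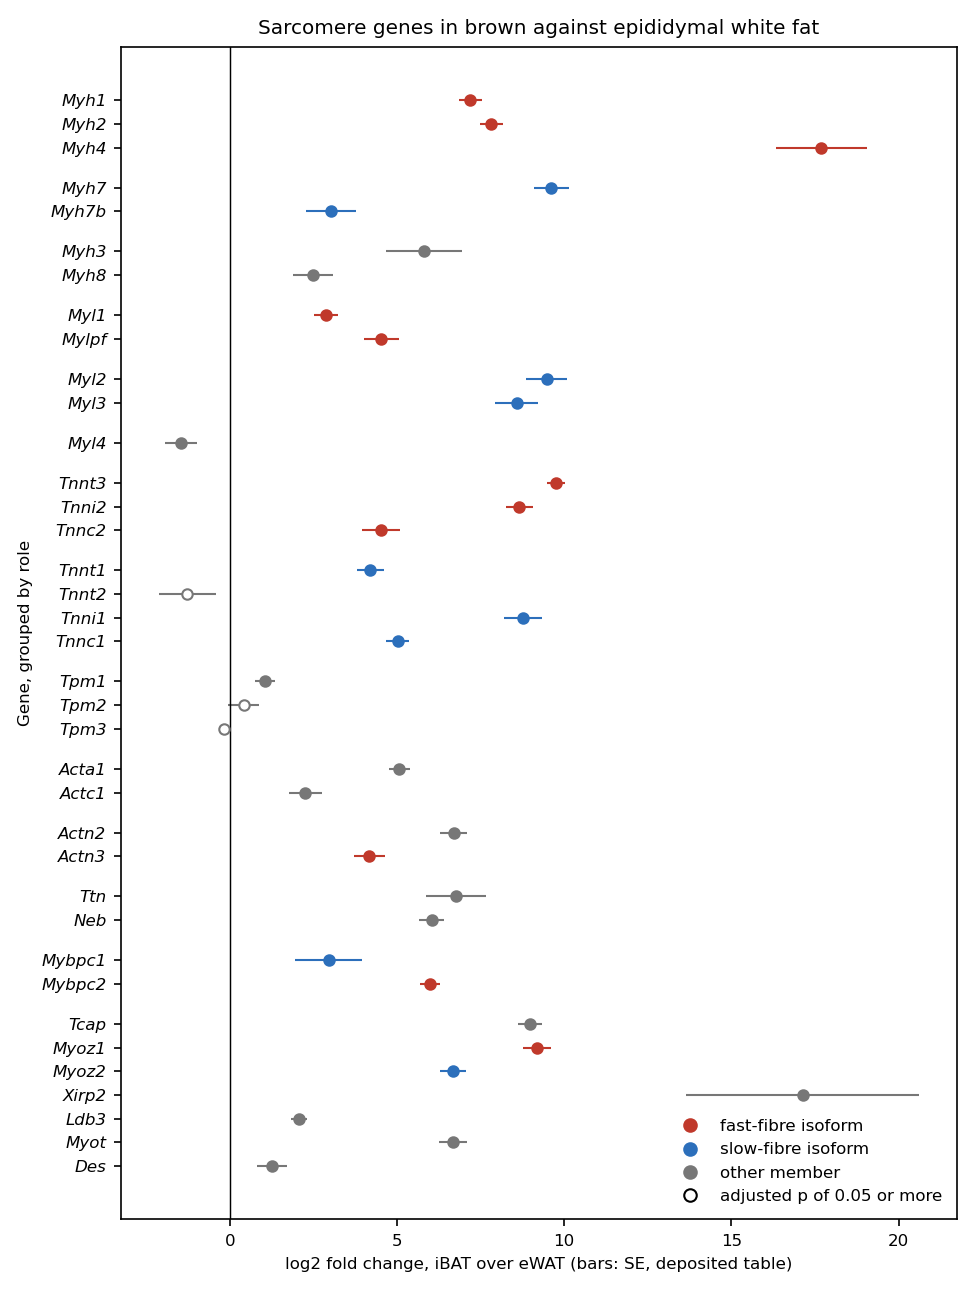
The log2 fold change of iBAT over eWAT for each of the 37 sarcomere genes analysed, grouped by role, from the authors' deposited table. Points are coloured by fibre type, bars are the deposited SE, and open points have an adjusted p of 0.05 or more; Myh4 and Xirp2 lie far to the right, and Myl4, Tnnt2 and Tpm3 lie left of 0.

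Myosin heavy chains are the motors and the usual markers of fibre type. The fast and developmental genes lie in a cluster on chromosome 11 (GRCm38), in the order Myh3, Myh2, Myh1, Myh4 and Myh8, from base 67078273 to base 67308634. The 250 bases before the RefSeq start (GRCm38.p6) are shown for Myh4 and Myh1, of this cluster, and for the skeletal actin gene Acta1, outside it. The windows are at chr11:67237562-67237811 and chr11:67199852-67200101 on the plus strand and chr8:123894776-123895025 on the minus strand. Among the members' windows they hold the most matches to the motifs marked in capitals: 6, 3 and 3. The window of Myh2, in the same cluster, and the windows of Myh7 hold no such match. Capitals mark matches to CAGCTG (an E-box, the core bound by myogenic factors), TATAAA, and the 10-base motifs MEF2 and CArG (the latter bound by serum response factor).
Myh4: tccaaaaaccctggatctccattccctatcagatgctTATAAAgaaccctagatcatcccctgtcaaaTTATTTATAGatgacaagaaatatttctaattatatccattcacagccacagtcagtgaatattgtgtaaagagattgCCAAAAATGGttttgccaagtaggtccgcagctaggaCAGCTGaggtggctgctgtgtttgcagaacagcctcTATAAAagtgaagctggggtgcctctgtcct
Myh1: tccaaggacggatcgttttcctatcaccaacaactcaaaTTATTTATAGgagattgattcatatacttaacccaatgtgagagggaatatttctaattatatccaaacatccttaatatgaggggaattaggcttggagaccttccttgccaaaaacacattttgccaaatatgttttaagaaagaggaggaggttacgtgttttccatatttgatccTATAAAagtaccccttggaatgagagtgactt
Acta1: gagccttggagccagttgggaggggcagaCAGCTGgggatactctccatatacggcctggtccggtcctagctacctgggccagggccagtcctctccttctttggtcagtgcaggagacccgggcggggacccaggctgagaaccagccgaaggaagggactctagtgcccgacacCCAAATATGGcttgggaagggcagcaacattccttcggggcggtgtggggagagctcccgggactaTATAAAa
In Myh4 and in Myh1 a TATAAA match lies inside the MEF2 match, on the other strand. In Acta1 the CArG match lies 73 to 64 bases before the start, and in Myh4 it lies 104 to 95 bases before it.

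Windows of this length were used for 30 members, 6 of them with 2 windows, which makes 36 windows against 32851 in the whole RefSeq set. Chromosome 18, where Myot lies, was left out of the members' windows but not out of the whole set. Both strands were searched. CArG was matched in 16.7% of the members' windows and 1.47% of all windows, in Acta1, Actc1, Ldb3, Myh4 and Myl3. MEF2 was matched in 16.7% of the members' windows and 2.92% of all, in Myh1, Myh4, Myh8, Myoz2, Ttn and Xirp2. CAGCTG was matched in 36.1% against 13%, and TATAAA in 22.2% against 12.4%. The looser E-box CANNTG, which holds every CAGCTG match, was found in 83.3% of the members' windows and 66.2% of all. The 2 windows of Ldb3, of Myh7 and of Tnni1 overlap, so that the Ldb3 CArG match and the Tnni1 CAGCTG match are each counted in both, and these shares are a description of letters, with no test.

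The adult fast myosins Myh4 (type IIb), Myh1 (type IIx) and Myh2 (type IIa) were all higher in iBAT. For Myh4 the authors' deposited table implies a level of 47341 normalized counts in iBAT and under 1 in eWAT. Its log2 fold change of 17.69 ± 1.36 (SE; adjusted p = 3.81e-61) was the largest toward iBAT of all genes per the authors' deposited table. With so little in eWAT, its size has no firm meaning as a ratio. Recomputed from the deposited fold change over its SE, the adjusted p of Myh4 was 9.68e-37. The level of Myh1 implied by the authors' deposited table was 7181 in iBAT against 48.96 in eWAT, a log2 fold change of 7.20 ± 0.36 (SE; adjusted p = 2.23e-87). For Myh2 the level implied by the authors' deposited table was 4341 against 19.3, a log2 fold change of 7.82 ± 0.34 (SE; adjusted p = 3.36e-114). Unlike Myh4, Myh1 and Myh2 thus had a measurable level in eWAT. These paralogs are near-identical over long stretches, so reads may have been split between them, and Myh1 also overlaps the noncoding gene Myhas.

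The slow and cardiac myosins gave the same direction. Myh7, the beta myosin of slow fibres and heart ventricle, had a level of 4350 in iBAT and 5.54 in eWAT by the authors' deposited table, 786-fold higher (log2 fold change 9.62 ± 0.51, SE; adjusted p = 4.48e-78). Myh7b, a slow-type myosin gene that hosts miR-499, had 64.8 against 7.93, a log2 fold change of 3.03 ± 0.75 (SE; adjusted p = 1.58e-05) per the authors' deposited table. Myh7 overlaps the noncoding genes Mhrt and Gm31251, and no source used here says whether the counting used strand. The developmental myosins were low but called: embryonic Myh3 had a log2 fold change of 5.81 ± 1.14 (SE; adjusted p = 5.67e-07) at a base mean of 14.7 per the authors' deposited table. Perinatal Myh8 had 2.48 ± 0.60 (SE; adjusted p = 2.43e-05) at a base mean of 24.9 per the authors' deposited table. Every myosin heavy chain analysed, fast, slow and developmental, was thus called higher in iBAT.

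Myosin light chains bind the neck of the heavy chain. The slow and ventricular light chains Myl2 (regulatory) and Myl3 (essential) were nearly at 0 in eWAT: the authors' deposited table implies 1296 against 1.82 for Myl2 and 651 against 1.71 for Myl3. Their log2 fold changes per the authors' deposited table were 9.48 ± 0.62 and 8.58 ± 0.64 (SE; adjusted p = 4.17e-51 and 3.09e-41). The fast essential chain Myl1 was present in both depots, at 11101 in iBAT and 1509 in eWAT by the authors' deposited table, a log2 fold change of 2.88 ± 0.36 (SE; adjusted p = 1.38e-15). The fast regulatory chain Mylpf had 177 against 7.67, a log2 fold change of 4.53 ± 0.52 (SE; adjusted p = 3.28e-18) per the authors' deposited table. Among light chains the slow pair had larger fold changes than the fast pair. Myl4, the light chain of the embryo and the heart atrium, was 2.78-fold lower in iBAT, at 166 against 462 by the authors' deposited table (log2 fold change -1.47 ± 0.48, SE; adjusted p = 0.00191). It was the only member called in that direction. Myl4 overlaps the coding gene Cdc27, the noncoding gene Gm11665 and pseudogenes such as Gm7020. Myl2 overlaps the coding gene Ccdc63, and Mylpf overlaps Septin1.

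Troponin has a tropomyosin-binding subunit T, an inhibitory subunit I and a calcium-binding subunit C. The fast subunit Tnnt3 had 17143 in iBAT and 19.9 in eWAT, with a log2 fold change of 9.75 ± 0.26 (SE; adjusted p = 5.17e-301) per the authors' deposited table. Fast Tnni2 had 5228 against 13.0 and a log2 fold change of 8.65 ± 0.40 (SE; adjusted p = 1.76e-101) per the authors' deposited table. Fast Tnnc2 had 9878 against 428 and a smaller log2 fold change of 4.53 ± 0.57 (SE; adjusted p = 1.83e-15) per the authors' deposited table. The 95% intervals from the deposited SEs were 9.24 to 10.26 for Tnnt3 and 3.41 to 5.64 for Tnnc2 per the authors' deposited table, and these intervals do not overlap although the proteins work in a single complex. The slow subunits were also higher: the log2 fold change per the authors' deposited table was 8.76 ± 0.57 for Tnni1, 5.02 ± 0.35 for Tnnc1 and 4.20 ± 0.41 for Tnnt1 (SE; adjusted p = 1.79e-51, 3.56e-46 and 7.68e-24). Tnnc1 serves slow fibres and the heart alike.

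The cardiac T subunit Tnnt2 was the exception, with 19.3 in iBAT and 46.7 in eWAT and a log2 fold change of -1.27 ± 0.84 (SE; adjusted p = 0.0724) per the authors' deposited table. It lies 25.3 kb from Tnni1 on chromosome 1, with 1 gene, Lad1, between them, and the neighbours' fold changes had opposite signs, that of Tnnt2 not called. The cardiac I subunit Tnni3, no member of the list, lies 2.3 kb from Tnnt1 on chromosome 7 and had a log2 fold change of -3.35 ± 0.58 (SE; adjusted p = 4.39e-09) per the authors' deposited table, against the positive value of Tnnt1. The fast pair Tnni2 and Tnnt3 lies 54.4 kb apart on chromosome 7 with Lsp1 between them, and both were higher. In the pairs that join a skeletal with a cardiac subunit, it was the skeletal gene alone that was higher in iBAT.

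Actin and tropomyosin form the thin filament. Skeletal actin Acta1 had 24161 in iBAT and 724 in eWAT, 33.4-fold higher (log2 fold change 5.06 ± 0.31, SE; adjusted p = 4.71e-58) per the authors' deposited table. Cardiac actin Actc1, which developing and regenerating skeletal muscle also makes, had 80.7 against 16.96 and a log2 fold change of 2.25 ± 0.50 (SE; adjusted p = 4.51e-06) per the authors' deposited table. Tropomyosins are spliced for many cell types, and the differences of their genes between depots were small. Tpm1 was 2.07-fold higher (log2 fold change 1.05 ± 0.31, SE; adjusted p = 0.00123) per the authors' deposited table. Tpm2 had 12733 against 9535 (adjusted p = 0.436) and Tpm3 had 6731 against 7595 (adjusted p = 0.370) per the authors' deposited table, neither called. The table gives gene totals, so muscle and non-muscle splice forms were not separated.

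Alpha-actinins anchor actin at the Z disc, and titin, nebulin and myosin binding protein C span or line the filaments. Actn2, found in all striated fibres, had a log2 fold change of 6.69 ± 0.41 (SE; adjusted p = 9.56e-60), and the fast-fibre form Actn3 had 4.17 ± 0.47 (SE; adjusted p = 6.08e-19) per the authors' deposited table. Titin (Ttn) had 7795 in iBAT against 72.2 in eWAT, a log2 fold change of 6.75 ± 0.90 (SE; adjusted p = 9.67e-15) per the authors' deposited table. Nebulin (Neb) had 9007 against 137, a log2 fold change of 6.04 ± 0.38 (SE; adjusted p = 2.95e-57) per the authors' deposited table. Fast Mybpc2 had 3124 against 49.3, and slow Mybpc1 had 3782 against 490 by the authors' deposited table. Their log2 fold changes per the authors' deposited table were 5.99 ± 0.30 and 2.95 ± 0.99 (SE; adjusted p = 6.94e-89 and 0.000781). Both giant scaffolds and both binding proteins were therefore called higher, with the widest error at Mybpc1. Mybpc2 overlaps the coding gene Fam71e1.

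All 7 Z disc and intermediate filament genes were called higher per the authors' deposited table, where 20.9% of all genes were. Their log2 fold changes ran from 1.26 to 17.13. Xirp2, an actin-binding protein of striated muscle, had 5005 in iBAT and under 1 in eWAT, with a log2 fold change of 17.13 ± 3.48 (SE; adjusted p = 2.24e-44) per the authors' deposited table. As for Myh4, the size of that fold has no firm meaning with so little in eWAT. Recomputed from fold change over SE, the adjusted p of Xirp2 was 4.99e-06. Telethonin (Tcap), which caps titin, had 2343 against 4.66 and a log2 fold change of 8.97 ± 0.37 (SE; adjusted p = 9.54e-129) per the authors' deposited table. Of the calcineurin-binding myozenins, fast-fibre Myoz1 had a log2 fold change of 9.20 ± 0.42 and slow-fibre and cardiac Myoz2 had 6.68 ± 0.39 (SE; adjusted p = 2.51e-104 and 7.44e-65) per the authors' deposited table. Myotilin (Myot) stood at 6.67 ± 0.41 (SE; adjusted p = 1.79e-57) and Ldb3 at 2.07 ± 0.25 (SE; adjusted p = 7.71e-16) per the authors' deposited table. Desmin (Des), the intermediate filament of all muscle including smooth muscle, had 8325 against 3469, 2.40-fold higher (adjusted p = 0.00561) per the authors' deposited table.

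Some members, such as desmin and the tropomyosins, are also made by smooth muscle and other cells of fat tissue. An eWAT level of 100 normalized counts or more was implied by the authors' deposited table for 12 members: Tpm1, Tpm2, Tpm3, Des, Myl1, Acta1, Mybpc1, Myl4, Tnnc2, Ldb3, Actn3 and Neb. A level under 1 in eWAT was implied for 3, Myh4, Xirp2 and Myh3.

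**Figure D2:**
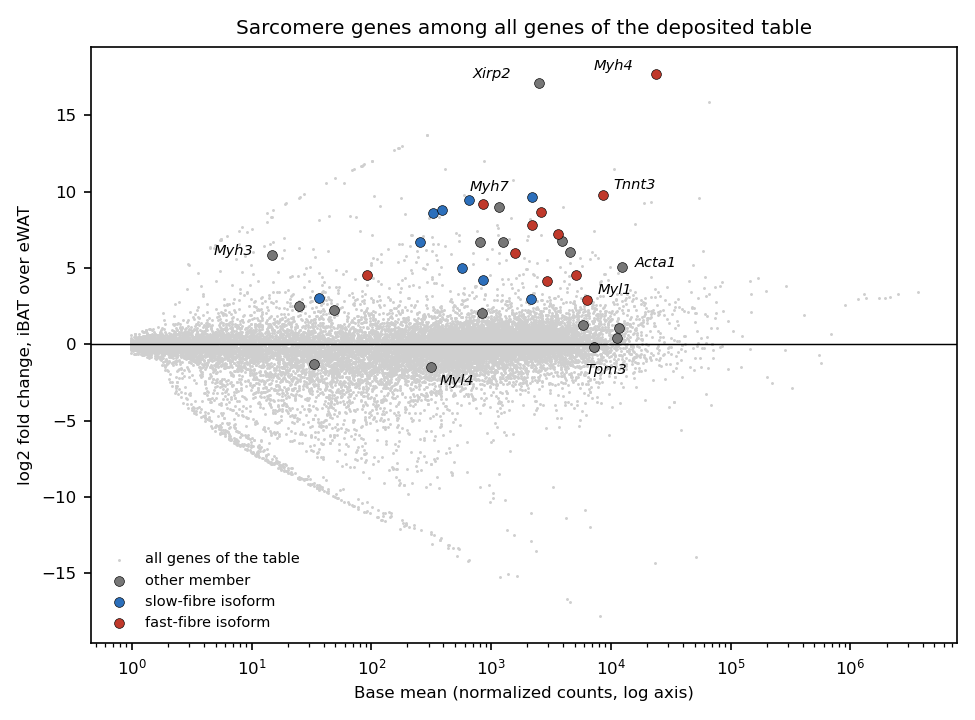
The log2 fold change of iBAT over eWAT against the base mean (log axis) for all 18947 genes of the authors' deposited table, with the sarcomere genes coloured by fibre type. Most members lie above the cloud of genes, and 28 of the 37 have a base mean above the median of all genes, 343.

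Other genes of striated muscle went the same way, with 20.9% of all genes called higher as the background. Of 31 further sarcomere genes analysed, 26 were called higher in iBAT per the authors' deposited table (25 with recomputed p-values, without Myom2) and 5 were not called, with a median log2 fold change of 5.32. Among them Lmod2 and Csrp3, both of striated muscle, stood at 13.72 ± 3.18 and 13.72 ± 3.22 (SE; adjusted p = 4.94e-29 and 2.83e-26) per the authors' deposited table. Recomputed from fold change over SE, their adjusted p-values were 7.44e-05 and 9.24e-05. Both had under 1 implied in eWAT, so these folds have no firm size. The lowest of the 31, Pdlim3, stood at -0.99 (adjusted p = 0.0656) per the authors' deposited table. Of 18 genes listed for coupling excitation to contraction, 15 were called higher per the authors' deposited table, with a median of 4.25. Mybph, a myosin-binding protein gene, is among these 15 and also among the 31 further sarcomere genes, so the lists are not fully separate. The fast-fibre calcium pump Atp2a1 led them at 11.47 ± 0.31 (SE), while the heart and slow-fibre pump regulator Pln stood at -0.25 (adjusted p = 0.630) per the authors' deposited table. Of 12 genes of fast-fibre metabolism and calcium buffering, Actn3 among them, 10 were called higher per the authors' deposited table, with a median of 4.16. The calcium buffer parvalbumin (Pvalb) stood at 8.99 ± 0.35 (SE; adjusted p = 1.24e-147) per the authors' deposited table.

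The slow-fibre list holds 12 genes, 7 of them sarcomere members. Per the authors' deposited table, the other 5 had a median log2 fold change of 0.88, with 3 called higher, 1 lower and 1 not called. Over all genes 20.9% were higher and 27.1% lower. The lower gene was Car3, at -1.26 ± 0.19 (SE; adjusted p = 2.59e-10) per the authors' deposited table, a carbonic anhydrase that is abundant in slow muscle and also in adipocytes. The 7 sarcomere members of this list were all called higher, and the difference between the members and the other 5 was not tested.

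Markers of heart muscle went either way, and those of smooth muscle were mostly lower in iBAT. Of 11 heart markers analysed, which include Actc1 and Tnnt2, 2 were called higher per the authors' deposited table, 4 lower and 5 not called, with a median of -0.59, against 20.9% higher and 27.1% lower over all genes. The atrial light chain Myl7 stood at -6.33 ± 2.80 and cardiac Mybpc3 at -4.49 ± 1.57 (SE; adjusted p = 0.000177, or 0.0546 when recomputed, and 0.000398) per the authors' deposited table. Their base means were only 7.12 and 7.40, so these folds have no firm size. The atrial hormone gene Nppa had a base mean of 2.24 and was not called (adjusted p = 0.646) per the authors' deposited table. Tbx5, a transcription factor of heart and forelimb, stood at 5.41 ± 0.50 (SE; adjusted p = 1.29e-26) per the authors' deposited table. The 2 heart markers called higher were Tbx5 and Actc1. The summed level of the 9 heart markers outside the member list was 393 in iBAT and 240 in eWAT by the authors' deposited table. Tbx5 alone held 327 of that sum in iBAT and 7.72 in eWAT, so the higher sum in iBAT rests on Tbx5. Of 10 smooth muscle markers, 8 were called lower and 2 were not called per the authors' deposited table, with a summed level of 9100 in iBAT and 49567 in eWAT. Of 13 non-muscle relatives of the members, such as Actn1 and Tpm4, 7 were called lower, 2 higher and 4 not per the authors' deposited table, with a median of -0.51.

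Myogenic genes were higher in iBAT too. Leaving out Des, 6 of 9 satellite cell and myogenic genes were called higher per the authors' deposited table, where 20.9% of all genes were. Their summed level was 409 in iBAT and 11.4 in eWAT. The muscle transcription factors Myf6, Myog and Myod1 stood at 11.64 ± 3.06, 10.58 ± 3.49 and 9.66 ± 2.92 (SE; adjusted p = 8.31e-17, 2.98e-06 and 1.64e-10) per the authors' deposited table. All 3 had under 1 implied in eWAT, so these folds have no firm size. Recomputed from fold change over SE, their adjusted p-values were 0.000568, 0.00737 and 0.00312. Pax7, the satellite cell marker, had a base mean of only 4.46, with 6.32 ± 2.82 (SE; adjusted p = 0.000323) per the authors' deposited table. With p-values recomputed from the deposited fold change and SE, the calls of Pax7 (adjusted p = 0.0578) and Myf5 (adjusted p = 0.149) were lost, which left 4 of 9. Genes of the neuromuscular junction were split, with 5 of 10 called higher, 1 lower and 4 not called per the authors' deposited table. Over all genes 20.9% were higher and 27.1% lower. With recomputed p-values 3 junction genes were higher, the calls of Chrnd and Musk being lost (adjusted p = 0.223 and 0.0656). The share of all genes called by recomputed p-values was not worked out, so the recomputed counts have no background. Chrna1, the muscle acetylcholine receptor's alpha subunit, stood at 3.77 ± 0.64 (SE; adjusted p = 2.34e-09) per the authors' deposited table. In the depot comparison 6 of 9 myogenic genes were thus called higher in iBAT, or 4 of 9 with recomputed p-values. The junction genes had a median log2 fold change of 1.16. With no value per library, whether myogenic and sarcomere mRNA were high in the same libraries could not be seen. Whether the sarcomere mRNA in iBAT came from muscle fibres taken with the fat was not tested.

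**Figure D3:**
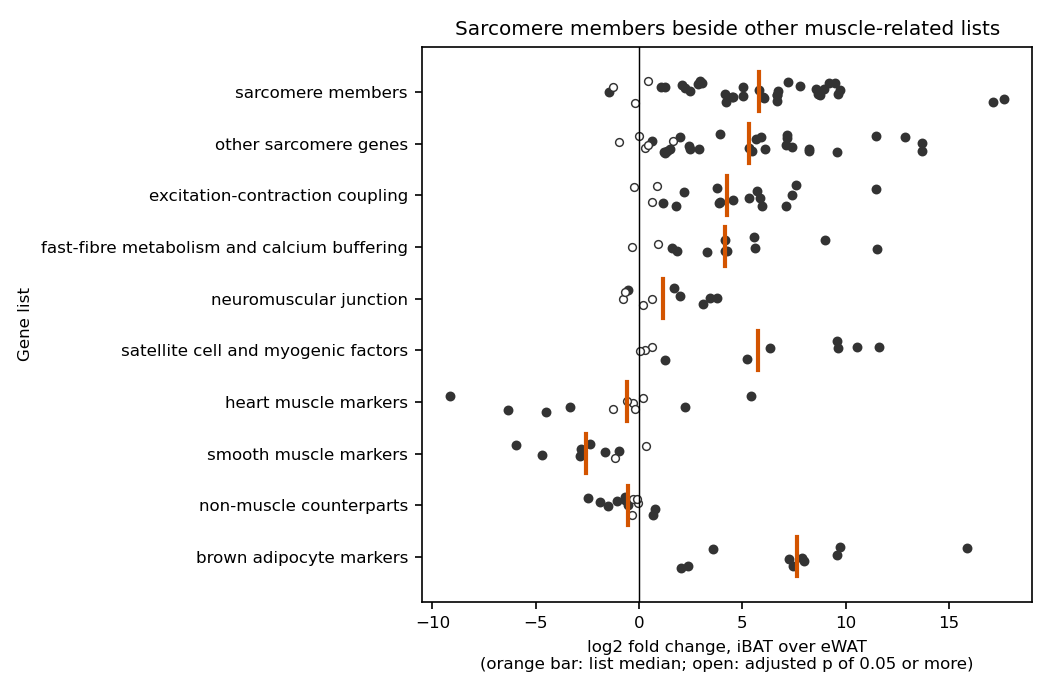
The log2 fold change of iBAT over eWAT for the members and for 9 further gene lists, from the authors' deposited table. Each point is a gene, orange bars are list medians and open points have an adjusted p of 0.05 or more; sarcomere, coupling and fast-fibre lists lie mostly right of 0, smooth muscle markers mostly left of it.

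MicroRNAs of muscle gave a second readout, in other libraries and with values per library. Several are tied to the members by position: miR-499 lies inside Myh7b, miR-208b inside Myh7 and miR-208a inside Myh6. MiR-206 and miR-133b are made from a shared locus on chromosome 1 and are typical of skeletal muscle. The mature sequences from RefSeq (GRCm38.p6) are shown for those the results turn on, with the seed (bases 2 to 8, which pair with targets) in capitals.
miR-499-5p: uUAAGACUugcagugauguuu
miR-208b-3p: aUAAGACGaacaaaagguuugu
miR-206-3p: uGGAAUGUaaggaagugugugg
miR-133b-3p: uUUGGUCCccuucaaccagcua
MiR-499-5p is at chr2:155622893-155622913 on the plus strand, miR-208b-3p at chr14:54975710-54975731 on the minus strand, miR-206-3p at chr1:20679055-20679076 and miR-133b-3p at chr1:20682834-20682855, both on the plus strand. The seed of miR-208b-3p, shared with miR-208a-3p, and that of miR-499-5p are close but not identical. Of 18 listed muscle miRNAs, 9 were in the table and 7 had enough reads to be tested.

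Values are normalized counts, the reads of a library divided by its size factor, in replicates 1, 2 and 3. MiR-1a-3p, the most abundant miRNA of striated muscle, had 11244, 18215 and 10083 in iBAT and 860, 797 and 832 in eWAT. The groups do not overlap. MiR-133a-3p, its partner from the same transcripts, had 3125, 4331 and 2230 in iBAT and 181, 205 and 205 in eWAT, again with no overlap. MiR-206-3p had 106, 218 and 121 in iBAT and 5.17, 2.56 and 1.19 in eWAT. MiR-499-5p, from within Myh7b, had 81.8, 107 and 40.4 in iBAT and 11.6, 12.8 and 16.6 in eWAT. In each of these 4 miRNAs the lowest iBAT library lay above the highest eWAT library. The share of all miRNAs whose libraries separate in this way was not worked out, so these separations have no background.

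By limma on log2(normalized count + 1), 6 of the 7 muscle miRNAs tested were higher in iBAT than in eWAT, where 25.5% of all miRNAs tested were. MiR-206-3p was 39.02-fold higher (log2 fold change 5.29 ± 1.50, SE; limma adjusted p = 0.00827). MiR-1a-3p was 15.3-fold higher (3.94 ± 1.18, SE; limma adjusted p = 0.0110) and miR-133a-3p 15.8-fold (3.98 ± 1.22, SE; limma adjusted p = 0.0126). MiR-499-5p was 4.93-fold higher (2.30 ± 0.59, SE; limma adjusted p = 0.00413), beside the 8.17-fold of its host Myh7b per the authors' deposited table. MiR-133a-5p was 20.2-fold higher (limma adjusted p = 0.00812) and miR-133b-3p 11.4-fold (limma adjusted p = 0.0264). In the eWAT libraries miR-206-3p had only 8, 6 and 2 recovered reads and miR-133a-5p 3, 3 and 2, so their folds have no firm size. With pseudocounts of 0.5 and 5 the log2 fold change was 5.52 and 4.23 for miR-206-3p. For miR-133a-5p it was 4.65 and 3.05. The call of miR-133b-3p was lost in 5 of the 6 fits that left out a library, with limma adjusted p from 0.0547 to 0.0706: without iBAT replicate 1 or 2, or any eWAT replicate. MiR-1a-1-5p, at 0 in every eWAT library, was not called by limma (adjusted p = 0.157), but was called higher by DESeq2 on recovered reads (adjusted p = 0.00810) and in the authors' deposited comparison (adjusted p = 0.0133). MiR-208b-3p, from within Myh7, was too rare to test, seen only in iBAT replicate 2 at 18.5 and aWAT replicate 1 at 9.11.

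**Figure D4:**
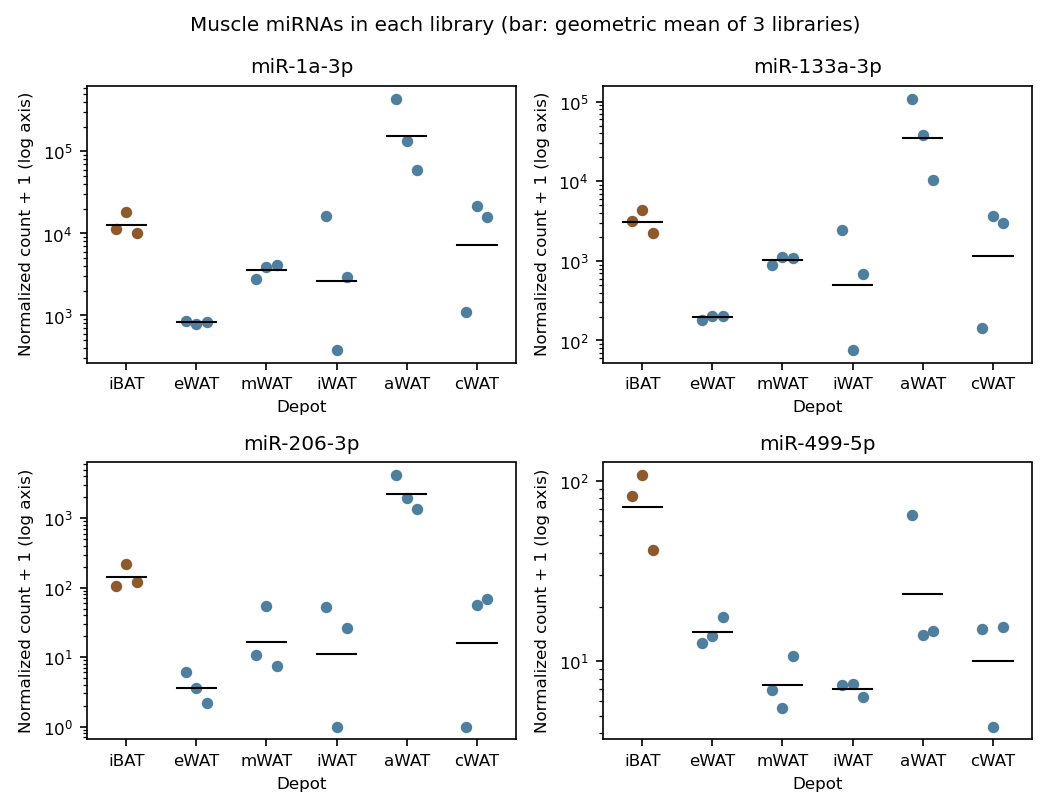
Normalized counts (plus 1, log axis) of 4 muscle miRNAs in each of the 18 small RNA libraries, by depot label, with bars at the geometric mean of 3 libraries. In all 4 panels the iBAT points lie above the eWAT points, and the aWAT points top the iBAT points except for miR-499-5p.

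The other white depots did not all resemble eWAT. MiR-1a-3p had 2809, 3859 and 4149 in mWAT, between eWAT and iBAT. In aWAT it had 440919, 134457 and 59728, which was 15.3%, 5.80% and 2.64% of each library's normalized counts. In iWAT it had 16537, 378 and 2907, and in cWAT 1107, 21657 and 16033. Replicates within iWAT and cWAT thus spanned 43.7-fold and 19.6-fold, against 1.81-fold in iBAT and 1.08-fold in eWAT. MiR-206-3p had 4181, 1949 and 1352 in aWAT, above every iBAT library, and was at 0 in iWAT replicate 2 and cWAT replicate 1, the lowest of their own label in miR-1a-3p. The replicates of eWAT were the closest together of the 6 labels for miR-1a-3p.

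By limma in the same fit, iBAT was below aWAT for 5 of the 7 muscle miRNAs, where 31% of all miRNAs tested were, and above it for 1, where 22.2% were. MiR-1a-3p was 11.97-fold lower in iBAT than in aWAT (log2 fold change -3.58 ± 1.18, SE; limma adjusted p = 0.0181). That call was lost without aWAT replicate 1 (limma adjusted p = 0.0816) and without iBAT replicate 3 (limma adjusted p = 0.0512), and the count fell to 2 without aWAT replicate 1 and to 3 without either aWAT replicate 2 or iBAT replicate 3. Against mWAT 1 of 7 was higher in iBAT (background 21.6%), against iWAT 2 (24.5%) and against cWAT 1 (19.7%). These comparisons share the iBAT libraries and, for each miRNA, a single estimate of the spread over all 6 labels. For miR-1a-3p the log2 fold change was 1.84 ± 1.18 against mWAT, 2.27 ± 1.18 against iWAT and 0.81 ± 1.18 against cWAT (SE; limma adjusted p = 0.196, 0.113 and 0.590). Every iBAT library nevertheless lay above every mWAT library for miR-1a-3p. With only the iBAT and mWAT libraries fitted, that difference was called (limma adjusted p = 0.00098). Without iWAT replicate 1 the iWAT difference was called (limma adjusted p = 0.0167) and the count of higher miRNAs rose to 5. Without iWAT replicate 2 the value was 0.88 (limma adjusted p = 0.510) and the count was 1, edgeR and DESeq2 gave 0.99 and 1.00, and without cWAT replicate 1 the cWAT value was -0.55.

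In the main fit miR-499-5p alone of the 7 muscle miRNAs tested was called higher in iBAT than under all 5 white depot labels. In mWAT it had 5.90, 4.53 and 9.72, in iWAT 6.34, 6.46 and 5.35, in cWAT 14.2, 3.35 and 14.5, and in aWAT 63.8, 12.9 and 13.7. Every iBAT library was above every mWAT, iWAT and cWAT library, and aWAT replicate 1 lay within the iBAT range. The log2 fold change was 3.27 ± 0.59 against mWAT, 3.35 ± 0.59 against iWAT and 2.83 ± 0.59 against cWAT (SE; limma adjusted p = 0.000226, 0.000226 and 0.00104). Against aWAT it was 1.60 ± 0.59 (SE; limma adjusted p = 0.0317). That call was lost without iBAT replicate 1 or 2 or aWAT replicate 2 or 3 (limma adjusted p from 0.0841 to 0.129). It was also lost with only the 2 depots fitted (limma adjusted p = 0.0869) and in the authors' deposited comparison (adjusted p = 0.0587).

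Set against miR-1a-3p in the same library, miR-499-5p is a miRNA of slow fibres and heart beside a miRNA of all striated muscle. There were 7.27, 5.85 and 4.01 miR-499-5p per 1000 miR-1a-3p in the iBAT replicates and 0.145, 0.0963 and 0.230 in the aWAT replicates, with no overlap. In eWAT the ratio was 13.5, 16.1 and 19.96, above every iBAT library, and in mWAT it was 2.10, 1.17 and 2.34, below every one. In iWAT it was 0.384, 17.1 and 1.84 and in cWAT 12.8, 0.155 and 0.905, with the highest value of each label in its library lowest in miR-1a-3p. These ratios were not tested, and many rest on few miR-499-5p reads: 3 to 9 in an mWAT library, 5 to 9 in iWAT, 2 to 42 in cWAT, 10 to 56 in aWAT, 18 to 30 in eWAT and 23 to 121 in iBAT.

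**Figure D5:**
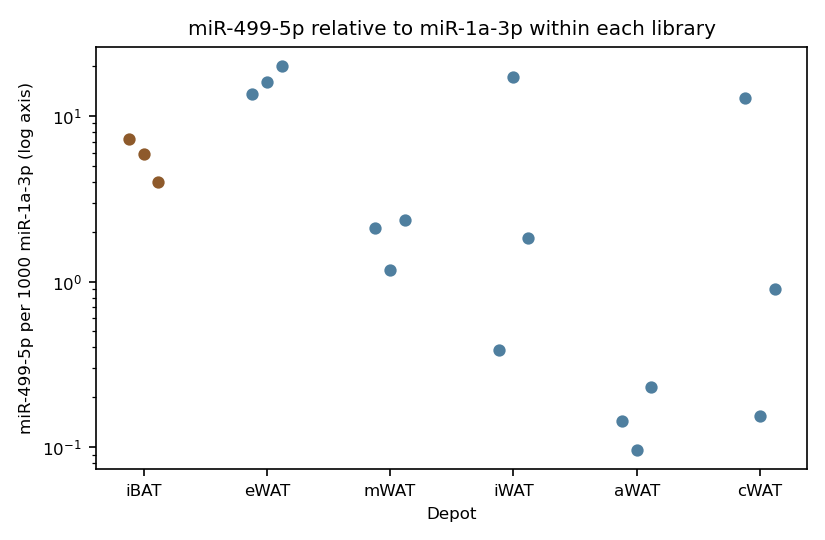
The number of miR-499-5p per 1000 miR-1a-3p (log axis) in each of the 18 small RNA libraries, by depot label, each point a library. The iBAT points lie between 4.01 and 7.27, above the 3 aWAT points and the 3 mWAT points and below the 3 eWAT points.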

How the data were processed

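For mRNA, 18947 genes have a base mean (the signal the authors deposited, an average over libraries of size-factor-normalized counts) and log2 fold changes of iBAT over eWAT with SEs, also made by the authors, per the file headers. The deposited p-values and adjusted p-values were used as they stand; the p-value equals that of fold change over SE for 10.7% of genes, and no source used here names the test behind the others. Depot levels were computed from base mean and fold change. For miRNAs, where both can be had, the deposited fold differed from the ratio of depot means by a median of 0.00945 on the log2 scale (452 miRNAs). The 95th percentile of that difference was 0.196. MiRNAs at 0 in either depot were left out, so this check does not reach mRNAs nearly at 0 in eWAT.

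The miRNA file holds normalized counts (a signal that the authors deposited, reads over a size factor) for 485 miRNAs, with fold changes, p-values and a deposited test statistic (score) that is not used in the text. Reads were recovered from them, with 100% of values whole within 0.02 reads; library totals were 1293407 to 6816555. In 12 libraries the smallest value is 2 recovered reads, in 6 it is 1. Depots were compared with limma 3.58.1 under R 4.3.3, using eBayes with trend on log2(normalized count + 1), 18 libraries, 6 depots, 12 residual degrees of freedom, for the 436 miRNAs kept by filterByExpr of edgeR 4.0.16, with Benjamini-Hochberg adjustment in each comparison. Alternatives used edgeR, DESeq2 1.42.0, other pseudocounts, no filter, reads scaled to equal library totals, only the 2 depots compared, a replicate block and each library left out.

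GRCm38, mm10, DESeq, DESeq2, Novoalign and kallisto 0.45.0 are named, without roles, in the submitters' processing notes, and the kit for mRNA was a stranded total RNA kit, per the labels' protocols. The members and gene lists were chosen with earlier results of these data known. All 38 members are accounted for; of other lists the text names examples among the 3 largest and 3 smallest log2 fold changes and a few set markers.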

Additional observations from a re-analysis of the deposited data

How the results depend on the processing

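For mRNA, the 185 alternative values of single members and 10 of their counts (p-values from fold change over SE, fold changes centred on the median of all genes, a fold minimum, a base mean minimum of 10 and an adjusted p under 0.01) all kept their direction and side of the threshold. For the other gene lists, p-values from fold change over SE (an alternative chosen after seeing the data) took the junction genes from 5 to 3 higher and the myogenic genes from 6 to 4. For miRNAs the 6 called higher against eWAT ranged from 5 to 7 over all alternatives. The count of muscle miRNAs higher in iBAT than in mWAT was 1 in the main fit, 3 with a pseudocount of 5, 6 with only the 2 depots fitted, and 2 with edgeR, DESeq2, reads scaled to equal library totals or the authors' deposited comparison, an alternative chosen after seeing the data. Against iWAT it was 2, then 1 with edgeR, DESeq2 or the deposited comparison, and 1 to 5 with a library left out. Against aWAT it was 1, then 0 with only the 2 depots or in the deposited comparison, and 0 to 1 with a library left out, while the count lower in iBAT, 5 in the main fit, ran from 2 to 5 with a library left out and from 4 to 6 under the other alternatives. Against cWAT it was 1, and 1 to 2 with a library left out. For miR-1a-3p against cWAT the value turned from 0.81 to -0.55 without cWAT replicate 1, and leaving out a library gave -0.55 to 1.60. The cause of these changes was not tested. A replicate block left the counts at 6 against eWAT, 1 against mWAT, 2 against iWAT, 1 higher and 4 lower against aWAT and 1 against cWAT, and changed no call of the miRNAs named singly. The replicate numbers were not taken as pairs. Of 45 same-numbered pairs, 12 correlated over 0.1 (median r = 0.0085, from -0.358 to 0.511), and 8 of 18 libraries correlated best with their own number. No label says whether same-numbered libraries came from the same animal, and these correlations cannot settle it. Depth limits miR-208b-3p, miR-1a-1-5p and the miR-499-5p of white depots, where 3 libraries together hold 18 to 77 reads. It also limits miR-206-3p and miR-133a-5p in eWAT, where 3 libraries together hold 16 and 8 reads.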
